A study of Rattus norvegicus with 30 samples.

Results

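Liver transcripts of 8 genes of fatty acid oxidation were followed in rats given DE-71. DE-71 is a commercial flame retardant made of several polybrominated diphenyl ethers (PBDE). The genes were the nuclear receptor gene Ppara and the enzyme genes Cyp4a1, Ehhadh, Cpt1a, Cpt2, Hadha, Acadm and Acot1. They were found by the gene symbol that the platform annotation gives to each probe set. All 8 could be read, from 11 probe sets that named 1 of them alone, out of 31042 probe sets tested and 14217 genes that could be read. A further probe set named both Acot2 and Acot1. Where a gene had several probe sets, the one with the highest mean over all arrays was taken as its representative.

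The 30 livers came from Wistar/Han rats in 6 groups of 5. Pups of both sexes were taken on postnatal day 22 and adults, all male, at week 13. Each age and sex had controls (0 mg/kg) and PBDE animals (50 mg/kg). The dams of all groups were gavaged with corn oil at 5 ml/kg, with or without DE-71, from gestation day 6 to postnatal day 21. Pups were also dosed directly up to postnatal day 21, and adults went on after weaning for 5 days per week. The controls shared the corn oil vehicle, the gavage and the diet. No adult females are among the samples used here, and only 1 dose above 0 was profiled. Each pup had its own dam, and so had each adult within its dose group, so the spread between livers is a spread between litters.

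PPARalpha is a receptor for fatty acids and for fibrate drugs that binds DNA together with the retinoid X receptor. In liver it is known for raising transcription of genes that burn fatty acids in mitochondria and peroxisomes and that hydroxylate them in the endoplasmic reticulum. The rat is known as a strongly responding species. Cyp4a1, Ehhadh and Acot1 are among its classic target genes in rodent liver.

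Values are given on the log2 scale of the deposited array signal, so that a difference of 1 is a doubling. Array medians lay between 5.72 and 5.77. Arrays correlated with the others of their group at 0.988 to 0.994 on average. All 7 hepatocyte markers measured of 8 listed lay above the array medians, and none of 4 skeletal muscle markers did. The array names in the labels carry 2 prefixes of 15 arrays each. One was carried by the control pups of both sexes and by male PBDE pups, the other by female PBDE pups and both adult groups. In female pups, prefix and dose therefore cannot be told apart, and among control males neither can prefix and age. Gapdh control probe sets at both ends of the transcript give a 3′ minus 5′ difference that grows as RNA breaks. Its mean was higher with PBDE in each dose comparison, with exact permutation p = 0.198 in male pups, 0.0397 in female pups and 0.0238 in adults (0.198, 0.0596 and 0.0596 adjusted over these 3). The livers are bulk tissue, in which fewer cells of a type and less RNA per cell cannot be told apart.

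The first question was whether the transcripts differed between PBDE and control livers. Acot1 rose in female pups, and no other change among the 8 genes passed the test in male pups, female pups or adult males. Passing meant an adjusted p under 0.01 within pups and under 0.05 in adults and between ages in limma, with Benjamini-Hochberg adjustment over all probe sets. In male pups 0 of 8 genes passed, where 7.48% of all genes did. In female pups 1 of 8 passed, against 6.13% of all genes. In adults 0 of 8 passed, against 3.9% of all genes. At an unadjusted p under 0.05, Acot1 counted in male pups, Ppara and Acot1 in female pups, and Acadm in adults. These are 1, 2 and 1 of 8, where 28.3%, 25.4% and 18.5% of all genes counted, so they do not stand above the background. The median change of the 8 genes was -0.02 in male pups, 0.03 in female pups and -0.15 in adults, beside 0.02, 0.02 and 0.01 over all genes.

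**Figure D1:**
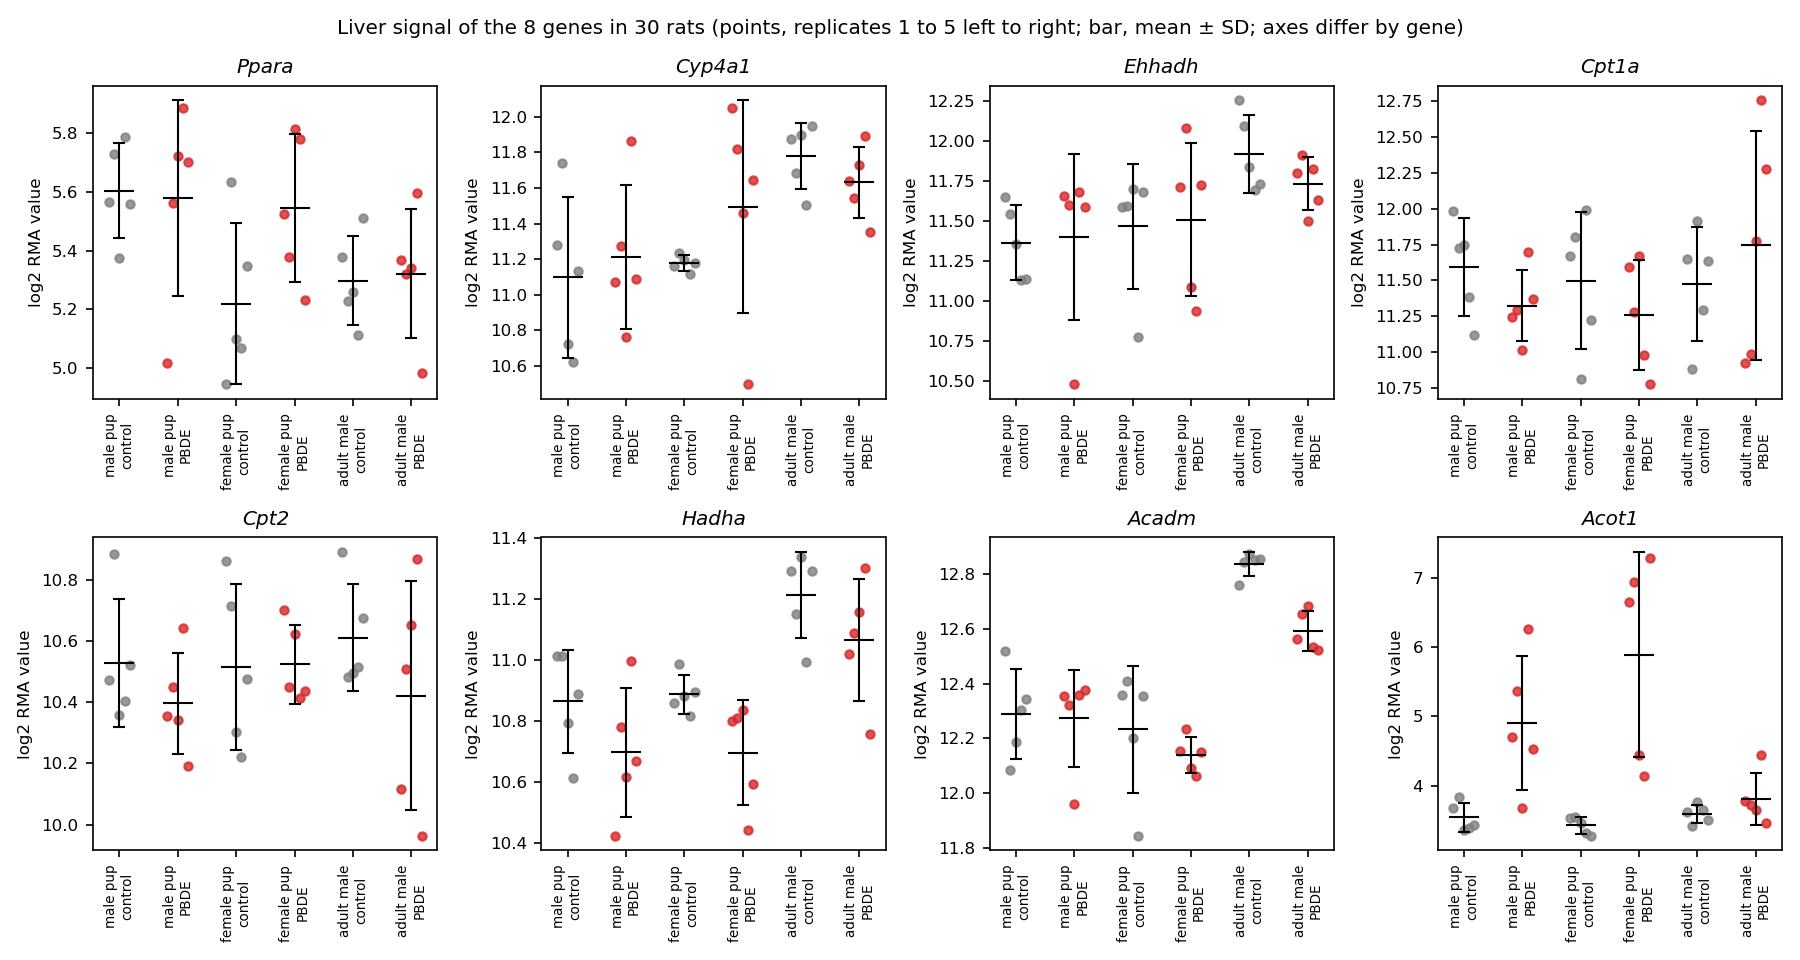
Log2 signal of each of the 8 genes (vertical axis, scaled per gene) in every liver of the 6 groups (horizontal axis); grey points are controls, red points PBDE animals, and bars give the mean ± SD of 5 livers. The PBDE pups of Acot1 spread from 3.68 to 7.29 beside controls that reach at most 3.84, and the adult controls of Acadm stand above all other livers.

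Acot1 encodes a cytosolic thioesterase that splits long-chain acyl-CoA into free fatty acid and CoA. In female control pups its 5 livers read 3.54, 3.55, 3.46, 3.32 and 3.28, and in female PBDE pups 6.65, 6.93, 4.44, 4.14 and 7.29. Every PBDE female lay above every control female, and the PBDE females themselves divided into 3 livers at 6.65 or more and 2 at 4.44 or less. The groups did not overlap for 10.9% of all genes in this comparison. The increase was 2.46 ± 0.43 (SE, n = 5 per group), which is 5.51-fold (limma adjusted p = 3.16e-04). This SE pools the spread of all 6 groups, and it was 0.53 with the 2 groups fitted alone. These 2 groups carry different array-name prefixes, so prefix and dose cannot be told apart here. The controls lay far below the array medians, where this signal resolves levels poorly, so the fold is one of signal and its size is uncertain. When the 2 groups were fitted alone, without the spread of the other 4, the call was lost (adjusted p = 0.0123). Over all alternatives run the adjusted p ran from 1.54e-05 to 0.0123.

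In male control pups Acot1 read 3.69, 3.84, 3.37, 3.40 and 3.43, and in male PBDE pups 4.70, 5.37, 3.68, 6.26 and 4.53. Of the PBDE males, replicate 3 alone fell within the control range. The change was 1.36 ± 0.43 (2.57-fold) and missed the threshold for pups (adjusted p = 0.0394, with 0.0139 to 0.142 over the alternatives). Leaving out 1 liver gave 1.03 without male PBDE pup replicate 4 and 1.67 without replicate 3. The arrays of both male groups carry the same name prefix. The dose change in males minus that in females was -1.10 ± 0.61 (adjusted p = 0.977), so a difference between the sexes was not shown.

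In adult males Acot1 stayed near the control level. The controls read 3.62, 3.43, 3.77, 3.65 and 3.51, and the PBDE adults 3.78, 3.73, 3.65, 4.45 and 3.46. PBDE replicate 4 read highest of the 10, the other 9 lay within 3.43 and 3.78, and the change was 0.22 ± 0.43 (adjusted p = 0.859). With the adult groups fitted alone in limma the SE was 0.15 (adjusted p = 0.582). The adult change minus the male pup change was -1.15 ± 0.61 (adjusted p = 0.411). By group mean the order ran from female PBDE pups (5.89) through male PBDE pups (4.91), PBDE adults (3.81), control adults (3.60) and male control pups (3.55) to female control pups (3.43). Each group in that order overlapped its neighbour. All 15 control values lay below the array medians.

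Measures that could move with Acot1 were set beside it. In the 3 PBDE females with high Acot1 the Gapdh 3′ minus 5′ difference was 1.72, 1.94 and 2.45, and in the 2 others 1.73 and 1.82. With that difference as a covariate the female increase was 2.55 ± 0.48 (adjusted p = 0.00108). Of the listed markers that could be read, 3 of 5 endothelial and 2 of 8 Kupffer cell and macrophage markers fell in male pups. In female pups 1 of 5 endothelial and 2 of 7 stellate cell markers fell, and in adults 1 of 8 Kupffer cell and macrophage markers fell (Aif1, by 0.64). Over all genes 3.26% fell in male pups, 2.18% in female pups and 2.04% in adults. Of 7 hepatocyte markers 1, Apoa2, rose by 1.87 in male and 1.92 in female pups. Of 3 cholangiocyte markers Epcam rose in all 3 comparisons, while Krt19 (-0.28, -0.32 and -0.23) and Krt7 (0.12, -0.15 and 0.05) did not pass. The shares of all genes that rose were 4.23% in male pups, 3.95% in female pups and 1.86% in adults. The summed endothelial signal ran from 12.43 to 12.71 in male controls and from 11.74 to 12.10 in male PBDE pups, and from 12.39 to 12.68 against 11.87 to 12.29 in females. The Kupffer cell and macrophage sum ran from 12.22 to 12.48 against 11.79 to 11.98 in males. In females it overlapped, at 11.97 to 13.00 against 11.91 to 12.35. The cholangiocyte sum ran from 8.77 to 9.45 against 9.80 to 10.46 in males. In females it was 8.94 to 9.40 against 9.48 to 10.14. Of single genes 11.9% in male and 10.9% in female pups did not overlap. The part of these cell types in the Acot1 result was not tested.

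The probe set shared by Acot2 and Acot1 did not show the Acot1 dose change, though livers within the PBDE groups ran alike on both. Its changes were -0.04, 0.09 and 0.03 (each ± 0.24) in male pups, female pups and adults. In female pups its controls read 6.93, 7.26, 6.96, 7.22 and 7.02, and its PBDE livers 7.43, 7.47, 6.77, 6.73 and 7.45. The same 3 females that were high for Acot1 read above every control here. The other PBDE females read below every control, so the PBDE group lay on both sides of the controls. Male PBDE pups read 6.46, 7.42, 6.16, 7.70 and 6.59 here, with replicate 4 highest and replicate 3 lowest, as for Acot1. In PBDE adults replicate 4 was highest and replicate 5 lowest on both probe sets. Acot2, the mitochondrial relative of Acot1, changed by 0.07 ± 0.20 in male pups and by 0.05 ± 0.20 in female pups on its own representative. On its other 2 probe sets it changed by -0.02 ± 0.21 and -0.34 ± 0.23 in female pups, and none of the 3 passed. Acot3 changed by -0.42 ± 0.24 in female pups and Acot4, the dicarboxylic member, by -0.01 ± 0.26, and neither passed. Thioesterase genes of this family are close relatives, so a probe set can pick up a neighbour's transcript, and the origin of the Acot1 signal was not tested beyond these readings.

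The start regions of Acot1 and Acot2 are printed because these neighbours on chromosome 6 are close relatives. Their probe sets differed in dose change in female pups. Each run is the 250 bases before the RefSeq start site in build GRCr8, read 5′ to 3′ on the plus strand, at chr6:109367024-109367273 for Acot1 and chr6:109342590-109342839 for Acot2. Capitals mark the stretch closest to the PPAR element, taken as 2 copies of AGGTCA in the same direction with 1 free base (N) between them. Of equally close stretches only the first found was marked.
Acot1: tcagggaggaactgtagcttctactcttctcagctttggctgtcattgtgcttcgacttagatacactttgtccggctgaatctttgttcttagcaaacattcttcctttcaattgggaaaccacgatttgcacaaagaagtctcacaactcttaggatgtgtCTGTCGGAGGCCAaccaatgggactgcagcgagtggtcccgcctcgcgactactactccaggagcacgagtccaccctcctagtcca
Acot2: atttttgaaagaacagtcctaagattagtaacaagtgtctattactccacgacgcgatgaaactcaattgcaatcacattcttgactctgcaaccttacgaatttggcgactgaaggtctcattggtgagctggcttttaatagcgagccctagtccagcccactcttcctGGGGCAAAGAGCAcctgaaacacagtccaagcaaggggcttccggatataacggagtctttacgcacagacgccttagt
The best stretch differed from the repeat in 4 of 12 letters in both, and 74.5% of all start regions searched held one that close or closer. An alignment of the 2 runs had 109 identical bases in 261 columns. Start regions were found for 7 of the 8 genes, all but Cyp4a1. On both strands, 0 of the 7 held the repeat with up to 2 differing letters, as 3.15% of 33469 start regions of the same length did. Hadha held it with 3 differing letters, as 21.4% did at that limit or closer, and 0 of the 7 held the exact AGGTCA copy, which 14.1% did. These counts describe letters in this window and say nothing of binding elsewhere.

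Ppara, the receptor itself, did not pass in any of the 3 dose comparisons. Its male control pups read 5.57, 5.73, 5.37, 5.79 and 5.56 and its male PBDE pups 5.02, 5.56, 5.72, 5.89 and 5.70. The male change was -0.02 ± 0.14. In females the controls read 4.95, 5.63, 5.10, 5.07 and 5.35, and the PBDE pups 5.52, 5.38, 5.82, 5.78 and 5.23. Here 4 of 5 PBDE livers lay above 4 of the 5 controls, and the change of 0.33 ± 0.14 did not pass (adjusted p = 0.185). In adults the change was 0.02 ± 0.14. All 6 group means, 5.22 to 5.60, lay below the array medians, and each group overlapped its neighbour in the order of means.

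**Figure D2:**
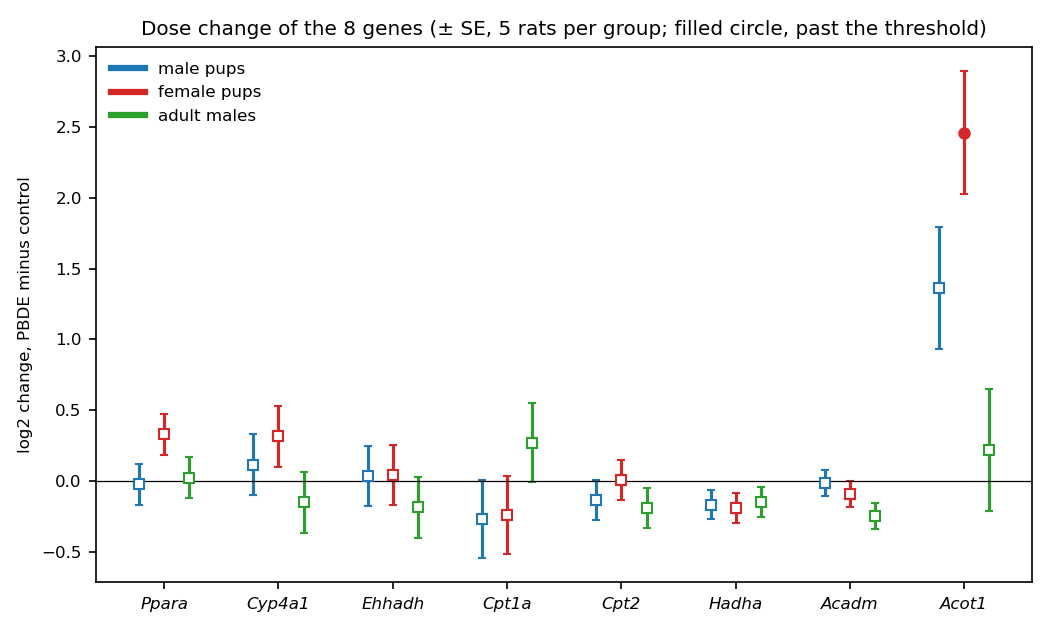
Log2 change of each gene (vertical axis, PBDE minus control, ± SE, 5 livers per group) in male pups (blue), female pups (red) and adult males (green); filled circles passed the threshold and open squares did not. Acot1 in female pups, at 2.46, is the one filled point, and the other 7 genes lie between -0.27 and 0.33.

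Cyp4a1, the fatty acid omega-hydroxylase known as the most responsive P450 to PPARalpha ligands in rat liver, did not pass either. Its female control pups were tightly grouped at 11.16, 11.24, 11.19, 11.12 and 11.18. The PBDE females read 12.05, 11.82, 11.46, 10.49 and 11.65. Of these, 4 lay above all 5 controls and replicate 4 lay below all of them, so the change was 0.32 ± 0.22 (adjusted p = 0.450). The SD was 0.60 in PBDE females and 0.04 in control females. Without replicate 4 the change was 0.57 and without PBDE replicate 1 it was 0.18; it passed in none of the alternatives (adjusted p at least 0.0593). The male pup change was 0.11 ± 0.22 and the adult change -0.15 ± 0.22.

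Ehhadh, the peroxisomal bifunctional enzyme that carries hydratase and dehydrogenase activity in one protein, was level in pups. The changes were 0.04 ± 0.21 in males and 0.04 ± 0.21 in females, and -0.19 ± 0.21 in adults (adjusted p = 0.947, 0.948 and 0.727). Each pup comparison held 1 low liver. In male PBDE pups replicate 3 read 10.48 while the other 4 read between 11.59 and 11.68. In female control pups replicate 4 read 10.77 while the others read between 11.59 and 11.70. Leaving out 1 liver at a time turned the sign of the pup changes, which ran from -0.03 to 0.27 in males and from -0.13 to 0.18 in females.

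The carnitine shuttle carries long-chain fatty acids into mitochondria through Cpt1a on the outer membrane and Cpt2 on the inner one. Neither passed. Cpt1a had 2 probe sets. On the representative it changed by -0.27 ± 0.28 in male pups, -0.24 ± 0.28 in female pups and 0.27 ± 0.28 in adults. Leaving out 1 liver at a time gave -0.39 to -0.17, -0.41 to -0.12 and 0.016 to 0.48, the adult low being without PBDE replicate 4. On the other, which read 8.34 in male control pups, it changed by -0.58 ± 0.34, -0.60 ± 0.34 and -0.07 ± 0.34 (adjusted p = 0.315, 0.332 and 0.947). Both probe sets were lower in PBDE pups of each sex, within their spread. In adults the PBDE livers read 10.92, 10.98, 11.78, 12.76 and 12.28 against 11.65, 10.88, 11.91, 11.30 and 11.64 in controls. The 2 highest Cpt1a readings of the whole study were thus PBDE adults, and their group had an SD of 0.80 against 0.40. Cpt2 changed by -0.13 ± 0.14, 0.01 ± 0.14 and -0.19 ± 0.14 and its group means lay within 10.40 and 10.61.

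Hadha encodes the alpha subunit of the mitochondrial trifunctional protein, which acts on long-chain intermediates. It was lower by a like amount in every dose comparison, by -0.17 ± 0.10 in male pups, -0.19 ± 0.10 in female pups and -0.15 ± 0.10 in adults, and passed in none (adjusted p = 0.355, 0.314 and 0.517). With the Gapdh covariate these values shrank, to -0.068 ± 0.094 in male pups, -0.053 ± 0.099 in female pups and -0.036 ± 0.096 in adults. The female controls read 10.86, 10.99, 10.88, 10.81 and 10.89 and the PBDE females 10.80, 10.81, 10.84, 10.44 and 10.59. Of the PBDE females, 4 lay below all 5 controls. The group means of its other 2 probe sets lay below the array medians, and they changed by at most 0.16 in size.

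Acadm, the medium-chain acyl-CoA dehydrogenase, had the change in adults with the least spread. Adult controls read 12.76, 12.85, 12.87, 12.85 and 12.86, and PBDE adults 12.56, 12.65, 12.69, 12.54 and 12.52. The groups did not overlap, as was the case for 4.59% of all genes, and the change was -0.25 ± 0.09, a level 1.19-fold lower. It did not pass (adjusted p = 0.153, with 0.108 to 0.301 over the alternatives). In pups the changes were -0.01 ± 0.09 in males and -0.09 ± 0.09 in females. The adult change minus the male pup change was -0.23 ± 0.13 (adjusted p = 0.439).

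The second question was whether the sexes differed among pups. In control pups 0 of the 8 passed, where 0.0422% of all genes did (0.0141% higher and 0.0281% lower in males). In PBDE pups 0 of the 8 passed, where 0.0563% of all genes did (0.0281% higher and 0.0281% lower in males). The sexes did not overlap for 0 of the 8 genes in either, against 1.55% of all genes in controls and 1.06% in PBDE pups. In the test of sex by dose 0 of 14217 genes passed. In limma at an unadjusted p under 0.05, Ppara counted in controls, Acot1 in PBDE pups and 0 of the 8 in sex by dose, where 8.71%, 5.15% and 5.63% of all genes counted. Ppara was 0.39 ± 0.14 higher in male than in female controls (adjusted p = 0.451), and 0.03 ± 0.14 higher in PBDE males. Acot1 was 0.98 ± 0.43 lower in PBDE males than in PBDE females, a difference of -0.98 with an adjusted p of 0.9995, and those 2 groups carry different array-name prefixes. For the other 6 genes the male minus female difference in controls lay between -0.10 and 0.09.

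The third question concerned age. In control males, 3 of the 8 genes were higher in adults than in pups, while 29.5% of all genes differed, 10.9% higher and 18.6% lower. These 2 groups carry different array-name prefixes, so prefix and age cannot be told apart, and the comparison is not among those the study design lists. Acadm was 0.55 ± 0.09 higher in adults (1.46-fold, adjusted p = 4.17e-05). The pup controls read 12.52, 12.09, 12.19, 12.30 and 12.35, all below the adult controls, as was the case on one side or the other for 21.1% of all genes. The call for Acadm passed under every alternative run.

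Cyp4a1 was 0.68 ± 0.22 higher in adult than in pup controls (1.61-fold, adjusted p = 0.0203). The adults read 11.87, 11.68, 11.90, 11.50 and 11.95 and the pups 11.28, 11.74, 10.72, 10.62 and 11.13, and male control pup replicate 2 reached into the adult range. Hadha was 0.35 ± 0.10 higher (1.27-fold, adjusted p = 0.0138). Both calls were lost with the Gapdh covariate, where Cyp4a1 was 0.50 higher (adjusted p = 0.238) and Hadha 0.15 higher (adjusted p = 0.456). They were also lost without male control pup replicate 4 (adjusted p = 0.0717 and 0.0543), and that of Cyp4a1 without replicate 3 (adjusted p = 0.0637). Averaging all 3 probe sets of Hadha gave 0.13 (adjusted p = 0.123).

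**Figure D3:**
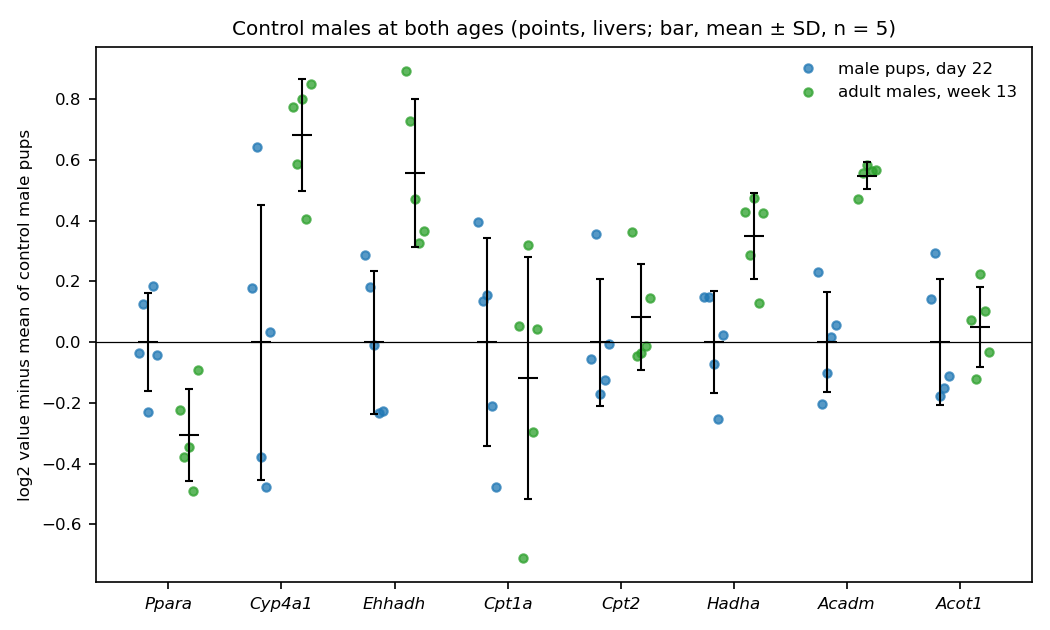
Log2 value of each control male minus the mean of the 5 control male pups (vertical axis) for the 8 genes, with pups on day 22 in blue, adults at week 13 in green, and bars giving mean ± SD of 5 livers. Acadm and Ehhadh of the adults lie above all pups, and the adults of Ppara average 0.31 lower.

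Ehhadh was 0.56 ± 0.21 higher in adult controls and just missed the threshold (adjusted p = 0.0582). The groups did not overlap, as was the case for 21.1% of all genes in this comparison. Ehhadh passed in 5 of the alternatives, each with an adjusted p of at most 0.0481. The pups read 11.65, 11.54, 11.35, 11.13 and 11.14 and the adults 12.26, 12.09, 11.84, 11.69 and 11.73. Ppara itself ran the other way, at -0.31 ± 0.14 (adjusted p = 0.133), and passed when the 2 groups were fitted alone (adjusted p = 0.0424) and with the Gapdh covariate (-0.50, adjusted p = 0.0414). Cpt1a (-0.12 ± 0.28), Cpt2 (0.08 ± 0.14) and Acot1 (0.05 ± 0.43) differed between the ages by less than their spread. The dose change in adult males minus that in male pups passed for 0 of the 8 genes, against 2.48% of all genes (1.13% higher, 1.35% lower), and 0 of the 8 had an unadjusted p under 0.05 in limma, where 16.1% of all genes had.

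The order of the 6 groups by mean was set side by side for each gene. Adult controls and PBDE adults held the top 2 places for Cyp4a1, Ehhadh, Hadha and Acadm. Both adult groups carry a different array-name prefix from the male pups and the female control pups, so prefix and age cannot be told apart there. Female PBDE pups share the adult prefix but differ from the adults in sex as well as age. For Acadm neither of the 2 adult groups overlapped the group next below it. For the other 7 genes each group overlapped its neighbour in all 5 steps of the order. Adult controls and PBDE adults did not overlap for 4.59% of all genes. For the order as a whole no share over all genes was counted, so these overlaps are a description only.

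The livers of a group were next compared with each other, with each gene read as its difference from the group mean. Pairs of the 8 genes gave 28 relations in each of 3 sets of 10 animals (PBDE pups, control pups, adult males), 84 in all. Pearson's r was above 0 for 24 of 28 pairs in PBDE pups, 25 of 28 in control pups and 24 of 28 in adults, with medians of 0.436, 0.283 and 0.273. Genes measured on one array share its RNA quality and its normalization, so these counts describe the arrays as much as the animals.

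Livers of PBDE pups with more Cyp4a1 also had more Acot1. Over the 10 PBDE pups r was 0.840 and Spearman's rho 0.830 (exact permutation within groups, p = 0.00174 and 0.00451, adjusted over 84 relations to 0.0467 and 0.126). Without the 2 livers farthest from the median of Cyp4a1, r was 0.738. The highest male of both genes was PBDE replicate 4 (Cyp4a1 11.86, Acot1 6.26) and the lowest was replicate 3 (10.76 and 3.68). Among females, replicate 4 was the lowest of both (10.49 and 4.14). Within the 5 males r was 0.974 and within the 5 females 0.780, each too few for a test of its own. In control pups, where Acot1 hardly left the bottom of its range, r was 0.821 (exact p = 0.00326, adjusted 0.0548) and rho 0.782 (exact p = 0.0440, adjusted 0.264).

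**Figure D4:**
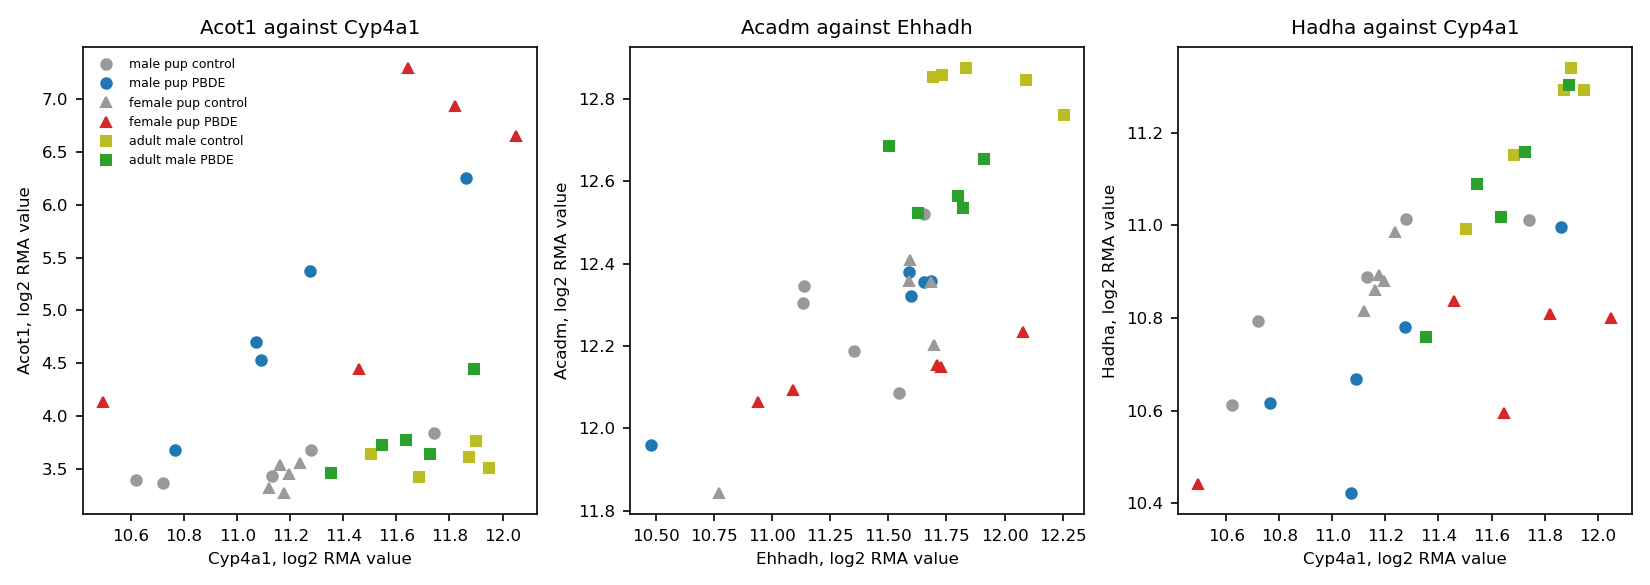
Log2 values of Acot1 against Cyp4a1, Acadm against Ehhadh and Hadha against Cyp4a1, 1 point per liver, coloured by group. In the left panel the PBDE pups (blue and red) climb from 3.68 to 7.29 on the Acot1 axis while controls of like Cyp4a1 reach at most 3.84; the 2 low Ehhadh livers of the middle panel are also the lowest for Acadm.

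Ehhadh and Acot1 were related less firmly in the PBDE pups (r = 0.831 and rho = 0.818, exact p = 0.00500 and 0.00868, adjusted 0.0700 and 0.157). Ehhadh and Acadm gave r = 0.912 and rho = 0.697 there (exact p = 0.00181 and 0.0258, adjusted 0.0467 and 0.264). Within the 5 males r was 0.991 and within the 5 females 0.971. The lowest liver of both genes was male PBDE replicate 3 (10.48 and 11.96), and r without the 2 farthest livers was 0.790. In adults Cyp4a1 went with Hadha (r = 0.951 and rho = 0.912, exact p = 9.72e-04 and 0.00201, adjusted 0.0467 and 0.0846) and with Ppara (r = 0.906 and rho = 0.839, exact p = 0.00222 and 0.0101, adjusted 0.0467 and 0.157). Without the 2 farthest livers these were 0.880 and 0.818. In control pups Cyp4a1 and Hadha passed by rank alone (rho = 0.964, exact p = 5.56e-04, adjusted 0.0467; r = 0.858, exact p = 0.0324, adjusted 0.160).

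Over all 30 arrays the genes whose pattern was most like each of the 8 were named by Pearson correlation, as a description, since the arrays share dose, age and prefix groups. Acadm was most like Gla (0.868), Vamp7 (0.862) and Hao2 (0.862), and Hadha most like Tm9sf4 (0.866), Mst1 (0.864) and Slco1a1 (0.861). Cyp4a1 was most like Eci1, which encodes a mitochondrial enoyl-CoA isomerase (0.743), Coa5 (0.739) and the acyl-CoA synthetase gene Acsl1 (0.718). Ehhadh was most like Uroc1 (0.749), Eci1 (0.71) and Rcbtb2 (0.694). Acot1 was most like Pafah1b1 (0.791), Creb3 (0.791) and Ufd1 (0.787). Cpt1a was most like Ncoa6 (0.706), Cxcl12 (0.696) and Slc25a42 (0.692), Ppara most like Rcc2 (0.669), Slc3a2 (0.663) and Aox1 (0.663), and Cpt2 most like Ppp4r3a (0.652), Zmiz1 (0.641) and Decr1 (0.621).

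A wider list of 99 genes of the pathway, of which 90 could be read, placed the 8 genes among their partners. In male pups 3 of 90 rose and 9 fell, where 4.23% of all genes rose and 3.26% fell. In female pups 4 rose and 8 fell, against 3.95% and 2.18%. In adults 2 rose and 3 fell, against 1.86% and 2.04%. The median change of the list was -0.08, -0.05 and -0.08 in these comparisons. Outside Acot1 the list held 28 calls, of which 14 passed under every alternative run. These 14 were Por, Pdk4, Cidea, Lpin1, Slc27a5, Acsl5, Fgf21 and G0s2 in male pups, Por, Vnn1, Ppargc1a, Slc27a5 and Hsd11b1 in female pups, and Por in adults.

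Among regulators, the coactivator gene Ppargc1a fell by 0.59 ± 0.12 in female pups (adjusted p = 0.00189). Lpin1, a phosphatidate phosphatase that also acts with PPARalpha in the nucleus, fell by 0.98 ± 0.20 in male pups (adjusted p = 0.00115). Ppargc1b, the other coactivator of that pair, fell by 0.86 ± 0.20 in male pups (adjusted p = 0.00531), a call that 10 of 18 alternatives ended. Of 12 regulators read, 2 fell in male pups, 1 fell in female pups and 0 passed in adults. Of 10 genes of fatty acid uptake and activation, 2 fell in male pups, 3 in female pups and 1 in adults, and 0 rose. Beside both lists, 3.26% of all genes fell in male pups, 2.18% in female pups and 2.04% in adults. The shares of all genes that rose were 4.23%, 3.95% and 1.86%. The fatty acid transporter gene Cd36, named after its values were seen, had the highest change of the list, 1.27 ± 0.45 in adults, and did not pass (adjusted p = 0.122). Slc27a5, a liver fatty acid transporter and bile acyl-CoA synthetase, fell by 0.64 ± 0.09 in male and 0.57 ± 0.09 in female pups (adjusted p = 1.63e-05 and 9.36e-05). Acsl5, a long-chain acyl-CoA synthetase, fell by 0.65 ± 0.14 and 0.59 ± 0.14 (adjusted p = 0.00210 and 0.00580), the latter ended by 11 of 18 alternatives. Its other probe set changed by -0.22 ± 0.11 and 0.01 ± 0.11 and did not pass.

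Acsm3, a medium-chain acyl-CoA synthetase, read low in the PBDE livers of all 3 comparisons. Adult controls read 9.12, 9.41, 6.86, 9.35 and 9.26, and PBDE adults 7.24, 7.84, 7.40, 7.28 and 6.83. Control replicate 3 alone read as low as the PBDE adults. The change was -1.48 ± 0.33 in adults (adjusted p = 0.00976) and -1.40 ± 0.33 in female pups (adjusted p = 0.00596). In male pups it was -1.16 ± 0.33 and did not pass (adjusted p = 0.0203). The adult call was lost when the 2 groups were fitted alone (adjusted p = 0.137), and the female call was ended by 11 of 18 alternatives.

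**Figure D5:**
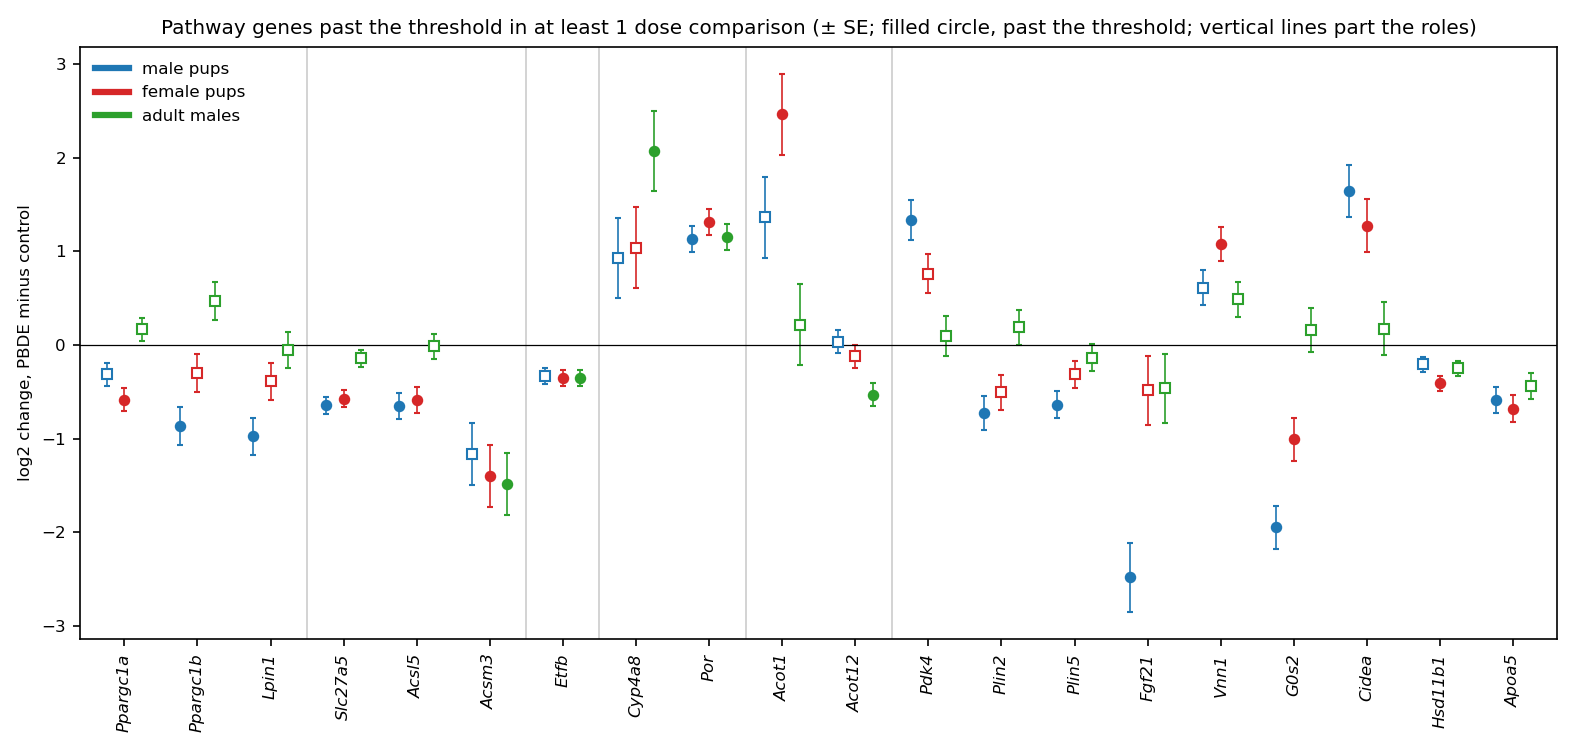
Log2 change (vertical axis, PBDE minus control, ± SE) of the 20 genes of the wider list that passed in at least 1 dose comparison, with male pups in blue, female pups in red and adult males in green; filled circles passed, open squares did not, and grey lines part the roles. Por rose in all 3, while G0s2 and Fgf21 of male pups lie at -1.95 and -2.48.

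None of the genes of the carnitine shuttle (8 read), of peroxisomal beta-oxidation (12 read) or of ketone body synthesis (2 read) passed in a dose comparison in limma. At an unadjusted p under 0.05 they counted 2, 4 and 1 in male pups, 3, 3 and 1 in female pups, and 1, 2 and 1 in adults, where 28.3%, 25.4% and 18.5% of all genes counted. Among 14 genes of mitochondrial beta-oxidation, Etfb, the beta subunit of the electron transfer flavoprotein, fell by 0.35 ± 0.09 in female pups (adjusted p = 0.00825) and by 0.35 ± 0.09 in adults (adjusted p = 0.0212). Those calls were ended by 9 and 5 of 18 alternatives. Over all genes 2.18% fell in female pups and 2.04% in adults. In adults all 14 of these genes had a change below 0, with a median of -0.15 beside 0.01 over all genes. Etfb was the only one of them to pass. The 14 were read on the same arrays and are not separate observations, and no share of changes below 0 over all genes was counted. The Gapdh 3′ minus 5′ difference was higher in PBDE adults as well. With it as a covariate the 14 changes stayed below 0, with a median of -0.061, and 0 of the 14 passed in adults or in female pups.

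In omega-oxidation the changes lay outside Cyp4a1. Por, the reductase that feeds electrons to all microsomal P450s, rose by 1.13 ± 0.14 in male pups, 1.31 ± 0.14 in female pups and 1.15 ± 0.14 in adults (adjusted p = 2.05e-06, 2.30e-07 and 5.34e-06). Its groups did not overlap in any, as was the case for 11.9%, 10.9% and 4.59% of all genes. Its other probe set changed by 0.45, 0.40 and 0.43 (each ± 0.25) and did not pass. Por serves every microsomal P450 and is therefore not specific to fatty acids. Cyp4a8 rose by 2.07 ± 0.43 in adults (4.21-fold, adjusted p = 0.00530). Its adult controls read 5.49, 7.86, 6.64, 7.17 and 6.78 and its PBDE adults 8.38, 7.38, 9.03, 9.66 and 9.86. PBDE replicate 2 lay within the control range on this probe set. The other Cyp4a8 probe set gave 2.10 ± 0.38 (adjusted p = 0.00146) without overlap, as was the case for 4.59% of all genes. Fitting the 2 groups alone ended the call of the first probe set (adjusted p = 0.0773). In pups Cyp4a8 changed by 0.93 ± 0.43 and 1.04 ± 0.43 and did not pass. Among 8 thioesterases read, Acot12, a cytosolic acetyl-CoA hydrolase, fell by 0.53 ± 0.12 in adults (adjusted p = 0.0126), a call that ended with the Gapdh covariate (adjusted p = 0.0509) and in the fit of the 2 groups alone (adjusted p = 0.104).

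Other known targets of PPARalpha moved in both directions in pups. Of 17 read, 2 rose and 5 fell in male pups, 2 rose and 3 fell in female pups, and 0 passed in adults. The shares over all genes were 4.23% and 3.26% in male pups, 3.95% and 2.18% in female pups and 3.9% in adults. In adults 3 of the 17 had an unadjusted p under 0.05 in limma, beside 18.5% of all genes. Fgf21, a fasting hormone of the liver, fell 5.58-fold in male pups, a change of -2.48 ± 0.37 (adjusted p = 3.51e-05), from 8.98, 7.63, 7.78, 9.49 and 9.03 to 5.77, 5.97, 5.93, 6.70 and 6.14. In female pups Fgf21 changed by -0.48 ± 0.37 from lower control values (6.29 to 7.68) and did not pass. G0s2, an inhibitor of triglyceride lipase, fell by 1.95 ± 0.23 in male pups (adjusted p = 1.24e-06) and by 1.01 ± 0.23 in female pups (adjusted p = 0.00517), the latter ended by 7 of 18 alternatives.

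The targets that rose were Pdk4, Cidea and Vnn1. Pdk4, a kinase that turns pyruvate dehydrogenase off, rose by 1.34 ± 0.21 in male pups (adjusted p = 8.36e-05). Its male controls read 10.19, 9.23, 10.29, 9.97 and 9.92 and its male PBDE pups 10.78, 11.64, 11.01, 11.52 and 11.34. In female pups it changed by 0.76 ± 0.21 and missed the threshold (adjusted p = 0.0214). Its groups did not overlap there, as was the case for 10.9% of all genes. Its other probe set gave 0.91 ± 0.20 in male pups (adjusted p = 0.00340) and 0.13 ± 0.20 in female pups. Cidea, a lipid droplet protein, rose by 1.64 ± 0.28 in male and 1.27 ± 0.28 in female pups (adjusted p = 2.05e-04 and 0.00348). Vnn1, a pantetheinase, rose by 1.08 ± 0.19 in female pups (adjusted p = 2.50e-04). The droplet coat genes Plin2 (-0.73 ± 0.19) and Plin5 (-0.64 ± 0.14) fell in male pups, Apoa5 in both sexes (-0.59 ± 0.14 and -0.68 ± 0.14) and Hsd11b1 in female pups (-0.41 ± 0.08). Of these, the call for Plin2 was ended by 14 of 18 alternatives and that for Apoa5 in males by 10. The other Plin2 probe set gave -0.32 ± 0.12 in male pups and did not pass.

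Among control males the wider list differed by age in both directions, with 19 of 90 genes higher in adults and 19 lower, where 10.9% of all genes were higher and 18.6% lower. Higher in adults with Cyp4a1, Hadha and Acadm were the omega-hydroxylase gene Cyp4a3 (0.98 ± 0.25, adjusted p = 0.00359), Eci1 (0.93 ± 0.20, adjusted p = 7.72e-04, but -0.03 ± 0.09 on its other probe set) and the peroxisome division gene Pex11a (0.88 ± 0.18, adjusted p = 6.01e-04). Lower in adults were the partner subunit gene of Hadha, Hadhb (-0.20 ± 0.07, adjusted p = 0.0302), and Acadvl, the very long-chain dehydrogenase (-0.20 ± 0.06, adjusted p = 0.0148). As above, prefix and age cannot be told apart here, and these genes were named after their values were seen.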

How the data were processed

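RNA from 30 rat livers was labelled from the 3′ end in a 2-cycle procedure starting from 50 ng and hybridised to Affymetrix rat genome arrays, per the labels' protocols. The deposited values are log2 signals that the authors made with RMA, per the submitters' processing notes; which program ran RMA is not given here. Of 31099 probe sets in the table, 57 were array controls, kept for quality measures. A platform table tied 20826 of the rest to 1 gene, 436 to several and 9780 to none, and symbols were updated through RefSeq for 20758. The precision rests on the number of arrays, 5 per group.

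All 6 groups entered one limma fit (version 3.58.1 under R 4.3.3; lmFit, eBayes) of group means, with p-values adjusted by Benjamini-Hochberg over 31042 probe sets. Thresholds of 0.01 for pups and 0.05 for adults follow the series design text, which names R/maanova as the tool. For age and age by dose the adult threshold was chosen here. At 0.01 the age calls of Cyp4a1 and Hadha would not pass (limma adjusted p = 0.0203 and 0.0138). Of the age by dose calls G0s2 alone would pass. The code was tested on simulated data. Shares of all genes are over the 14217 representatives. Single values were compared by exact permutation (Python 3.11.15, SciPy 1.17.1), two-sided; figures used matplotlib 3.10.9.

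The alternatives were the groups compared alone, no shrinkage of the spread, a robust eBayes with a trend, quantile normalization repeated, a filter on low values, a replicate block, the mean of a gene's probe sets, the Gapdh covariate, and each liver left out. Replicate numbers in the titles name no shared dam. Residuals of arrays with the same number correlated at 0.00360 on average over 75 pairs, against -8.91e-04 over 300 other pairs. These pairs mix all 6 groups, controls with PBDE animals included, so the averages are a description and no test of shared dams.

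The 8 genes and all lists were chosen with earlier results of these data known. The text names all 8, up to 4 genes per role list with the largest change past a threshold, and the 3 most alike genes of each (among genes at or above the median of gene means); genes beyond these were named after their values were seen. Some genes of the wider list are not reported here.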

Additional observations from a re-analysis of the deposited data

Results flagged for a closer look

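Among 72 groups of 5 livers (all probe sets of the 8 genes), 4 held a liver whose gap to its nearest neighbour exceeded 0.71 of the group's range, the critical value of Dixon's test; chance gives such a gap in about 1 of 20 groups. For Ehhadh these were male PBDE pup replicate 3 at 10.48, where the nearest liver read 11.59, and female control pup replicate 4 at 10.77, where the nearest read 11.59. For Acadm they were male PBDE pup replicate 3 at 11.96 (nearest 12.32) and adult control replicate 1 at 12.76 (nearest 12.85). Male PBDE pup replicate 3 was thus the low liver of both genes, and it was also the lowest male PBDE liver for Cyp4a1 and Acot1.

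The dose change in adult males differed from that in male pups for 5 of the 90 genes read of the wider list, by limma's interaction term. Of these, 4 were higher and 1 lower, where 1.13% of all genes were higher and 1.35% lower (2.48% together). As adult change minus pup change, G0s2 gave 2.11 ± 0.33 (adjusted p = 5.55e-04) and Ppargc1b 1.34 ± 0.29 (adjusted p = 0.0125), and both passed under all 28 alternatives. Fgf21 gave 2.02 ± 0.52 (adjusted p = 0.0411), Pdk4 gave -1.24 ± 0.30 (adjusted p = 0.0262) and Slc27a5 gave 0.50 ± 0.13 (adjusted p = 0.0391). Of 28 alternatives, 14 ended the call for Fgf21, 5 that for Pdk4 and 14 that for Slc27a5. The adult arrays and the male pup arrays carry different name prefixes, but each dose change was taken within 1 prefix.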

How the results depend on the processing

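For the 8 genes and 3 dose comparisons 429 values were recomputed: 399 kept sign and side of the threshold, 1 lost its call and 29 changed sign, 0 of them past the threshold. Fitting the compared groups alone took the count in female pups from 1 to 0 (Acot1) and the count by age in controls from 3 to 5, with Ppara and Ehhadh added; over all probe sets it took the adult dose count from 924 to 269 and the count by sex in PBDE pups from 14 to 8. The count by age over all probe sets, 7146, was 4305 with the Gapdh covariate and 4384 with probe sets averaged, where fewer features were tested; averaging also gave 8 by sex in PBDE pups. The age count ran from 1 to 4 without 1 liver, and without male control pup replicate 4 Acadm alone was left. Values that changed sign were near 0. With the Gapdh covariate these were Ppara in male pups (0.071), Ehhadh in male (-0.020) and female pups (-0.036), Cpt2 by age (-0.082) and Acot1 by age (-0.088). With repeated quantile normalization they were Cpt2 in female pups (-0.024) and Acadm in male pups (0.0061), and with probe sets averaged Cpt1a by age (0.094). Leaving out 1 liver gave -0.10 to 0.12 for Ppara in male pups, -0.045 to 0.11 for Ppara in adults, -0.049 to 0.27 for Cyp4a1 in male pups, -0.035 to 0.27 for Ehhadh in male pups, -0.13 to 0.18 for Ehhadh in female pups, -0.065 to 0.095 for Cpt2 in female pups, -0.065 to 0.064 for Acadm in male pups and -0.24 to 0.030 for Cpt1a by age. The cause was not tested. The replicate block kept Acot1 in female pups (2.46, adjusted p = 4.94e-04) and left it short in male pups (adjusted p = 0.0428); by age it took the count to 4, with Ehhadh added (adjusted p = 0.0260), and it ended the call for Plin2 in male pups (adjusted p = 0.0131). The filter on low values removed Ppara, and Acot1 passed it only through PBDE females. Signal below the array medians limits what can be said of Ppara and of Acot1 in controls.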
